A study of Mus musculus with 9 samples.

Results

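The comparison set yNSCs, cells with neural stem cell properties obtained from mouse cortical neurons by expression of YAP, against native mouse neural stem cells (NSCs). Arrays were chosen by title alone, 3 titled yNSCs and 3 titled NSCs, which are 6 of the 9 Affymetrix arrays of the series. The other 3 arrays, of cortical neurons, gave reference levels and entered the shared estimate of the spread. All 18193 genes that the annotation named through a probe set of 1 gene symbol were compared. The yNSCs came from murine cortical neurons after doxycycline-inducible expression of wild-type YAP. In the study's methods the vectors were lentiviral, rtTA drove the inducible YAP, the neuron cultures came from late embryos or newborns, and spheres that formed under doxycycline were passaged without it. Both kinds of stem cell culture grew in DMEM/F12 with N2 supplement, heparin and the growth factors EGF and bFGF, and the neurons in Neurobasal with B27, glutamine, antibiotics and AraC, which removes dividing cells. The strain, the passage at which RNA was taken, and the brain region and age behind the NSCs of these arrays are not given in the sources used here. Letters A, B and C mark biological replicates in the labels, which do not say whether these were separate animals, derivations or cultures, so the p-values measure the spread between these samples.

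Neural stem cells kept in EGF and bFGF divide as undifferentiated cells, express Nestin and SRY-related factors such as Sox2, and use the Notch pathway to hold back differentiation. YAP and its paralogue TAZ (gene Wwtr1) are transcriptional coactivators that the Hippo kinases keep out of the nucleus and that bind DNA through the TEAD factors. The question put to these arrays was how closely the induced cells resemble native NSCs gene by gene.

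Each array carried 45101 probe set values on the log2 scale of RMA, a method that corrects background, normalizes arrays and summarizes the probes of a set. Array medians lay between 4.90 and 5.02. Across genes, Pearson correlations were 0.996 to 0.998 among the yNSCs arrays, 0.992 to 0.998 among the NSCs arrays and 0.947 to 0.960 between the groups; genes are not independent replicates. The NSCs A array lay farthest from its group: 162 genes there differed over 2-fold from the average of the remaining NSCs arrays, against at most 30 on any other array. The 3′ minus 5′ signal of the Actb control, a sign of RNA length, was 0.56 to 0.70 in NSCs and 0.19 to 0.31 in yNSCs, and that of Gapdh was 0.11 to 0.28 in NSCs and from -0.09 to -0.04 in yNSCs. These ranges do not overlap, and their part in the differences below was not tested. A gene is called near background in a group where its mean lay below the mean lower quartile of that group's arrays, which was 3.49 in yNSCs, 3.43 in NSCs and 3.71 in neurons; folds against such a group understate the difference. As the number of arrays limits the precision, an exact permutation test of 3 against 3 arrays could not give a p below 0.1, and tests below come from the limma fit over all genes with Benjamini-Hochberg adjustment.

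Of the 18193 genes, 3876 were called higher in yNSCs (21.3%) and 3277 lower (18.0%), 39.3% in all, at an adjusted p under 0.05. A difference of at least 2-fold was called for 1101 genes higher and 1086 lower, and one of at least 8-fold for 129 higher and 62 lower. Of the genes at 8-fold or more, 32 were near background in NSCs and 9 near background in yNSCs. The 3 yNSCs and 3 NSCs arrays did not overlap for 9380 genes (51.6%). Counts over the gene lists below are read against these shares. The median difference over all genes was 0.07 on the log2 scale, with an SD of 0.76 across genes. Where a gene had several probe sets, the brightest stood for it, and another of its probe sets was called the opposite way for 422 of 4341 called genes and for 60 of 1326 with a difference of 2-fold or more. Some called genes named below, among them Sox3, Rfx4, Axl, Lgr5 and Tgfbr2, had other probe sets of which none was called.

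**Figure D1:**
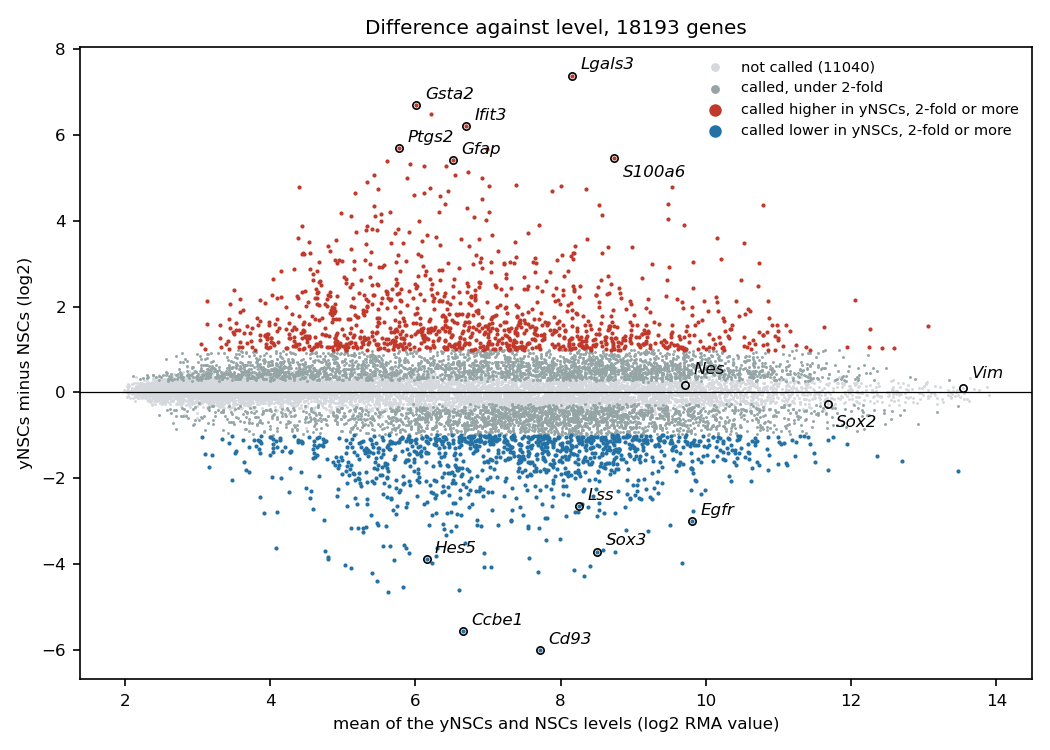
Each point is 1 of 18193 genes, with the mean of the yNSCs and NSCs levels (log2 RMA value) on the horizontal axis and the log2 difference yNSCs minus NSCs on the vertical axis; red and blue mark genes called higher or lower by 2-fold or more, and open circles mark named genes. Lgals3, at 7.38, and Cd93, at -6.01, are the extremes, whereas Nes, Vim and Sox2 lie near 0.

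The largest difference of all was that of Lgals3, which encodes galectin-3, a lectin that binds beta-galactosides at the cell surface and in the matrix. Its probe set read 11.53, 11.85 and 12.17 in yNSCs A, B and C and 4.71, 4.30 and 4.41 in NSCs A, B and C. The groups lay far apart, with a difference of 7.38 on the log2 scale, a 166-fold ratio (SE 0.180 log2, adjusted p = 1.07e-10). Gsta2, an alpha-class glutathione S-transferase, read 9.33, 9.46 and 9.28 in yNSCs against 2.51, 2.49 and 3.01 in NSCs, where it was near background (difference 6.69, SE 0.162, adjusted p = 1.07e-10). Other genes among the 15 largest were Lyz1, a lysozyme (6.49), the interferon-stimulated Ifit3 (6.20) and Ifit1 (5.39), the prostaglandin synthase Ptgs2 (5.70), the aldo-keto reductase Akr1b8 (5.67), the calcium-binding S100a6 (5.46), the glial filament gene Gfap (5.42), the calponin Cnn1 (5.32), the hepatocyte growth factor receptor Met (5.27), the secreted neuropeptide precursor Vgf (5.14), the oncostatin M receptor Osmr (5.06), and Abhd3 (5.27) and Cpeb1 (5.06). Lyz1, Ptgs2, Ifit1, Cnn1 and Cpeb1 were near background in NSCs, as Gsta2 was, so these differences understate the change and have no firm order. Several of these were not low in the neuron cultures, where the mean level was 9.71 for Lgals3, 11.56 for Lyz1, 10.25 for Met, 8.58 for Vgf and 7.62 for Gfap, while Gsta2 (2.84), Ptgs2 (3.09), Ifit1 (3.14) and Cnn1 (3.30) were near background there. Probe sets of close paralogues such as Lyz1 and Lyz2, or the alpha-class glutathione transferases, can bind each other's transcripts, so their values are uncertain as to the gene.

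At the other end, Cd93, a C-type lectin-like receptor, read 4.67, 4.70 and 4.76 in yNSCs and 10.76, 10.81 and 10.59 in NSCs (difference -6.01, 64.4-fold lower, SE 0.146, adjusted p = 1.07e-10). Ccbe1, a secreted matrix protein known from lymphatic vessel growth, read 3.68, 4.01 and 3.94 in yNSCs, 9.25, 9.47 and 9.61 in NSCs and 7.25 on average in neurons (difference -5.57, SE 0.122, adjusted p = 1.07e-10). No array of either group came near the range of the other for these genes. Both were taken from genes whose arrays did not overlap, so the separation itself is no further result. Among the 15 lowest were genes of neuronal excitability, namely the GABA-A receptor subunit Gabrg1 (-4.66), the potassium channels Kcnd2 (-4.54) and Kcna2 (-4.18), the channel-binding Fgf14 (-4.40) and the AMPA receptor subunit Gria2 (-4.07). Another probe set of Fgf14 was called the opposite way. The rest were Moxd1 (-4.61), the metalloproteinase Adam19 (-4.27), the sortilin-related receptor Sorcs1 (-4.20), Bcas1 (-4.14) of the oligodendrocyte lineage, the BMP-binding Vwc2 (-4.08), Calcrl (-4.06), Prr18 (-4.04) and the transcription factor Ebf1 (-4.01). Gabrg1, Fgf14, Sorcs1, Vwc2 and Ebf1 were near background in yNSCs. In neurons Kcnd2 (9.68) and Gria2 (11.33) exceeded the NSCs level, whereas Cd93 (4.82), Moxd1 (4.40) and Calcrl (3.83) were low.

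**Figure D2:**
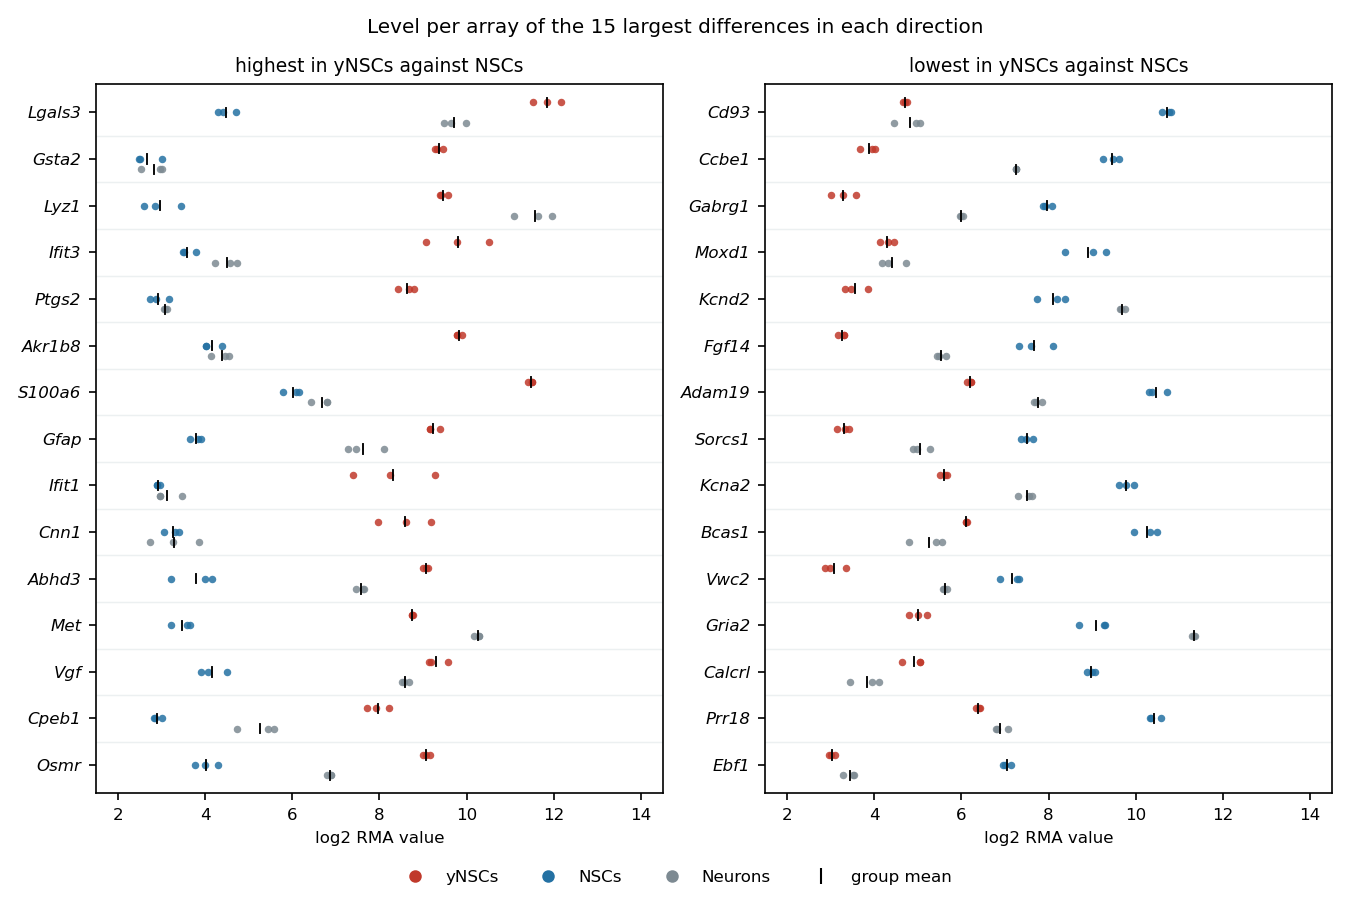
Log2 RMA value on each of the 9 arrays for the 15 largest differences called higher (left) and lower (right) in yNSCs against NSCs; points are arrays, colored by group, and the short black line is the group mean. Only genes whose yNSCs and NSCs arrays did not overlap were eligible, so the points are separate in every row by that choice. Differences run from Lgals3 (7.38) down to Osmr and Cpeb1 (5.06) on the left and from Cd93 (-6.01) to Ebf1 (-4.01) on the right.

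**Figure D3:**
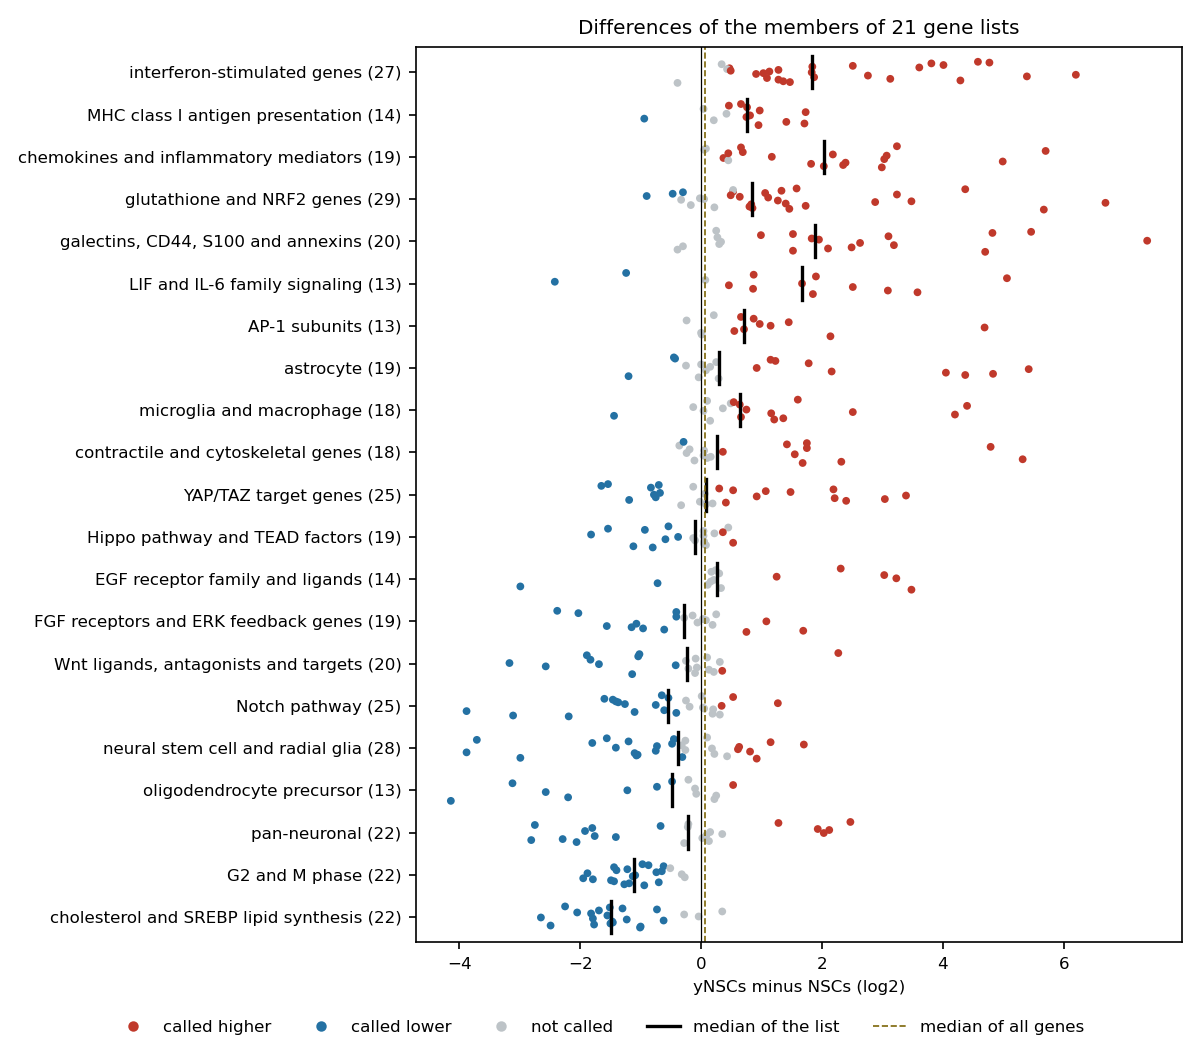
Log2 difference yNSCs minus NSCs of every measured member of 21 gene lists (number of genes in parentheses), with red and blue for members called higher or lower and a black line at the median of each list. Medians run from 2.03 for chemokines and inflammatory mediators to -1.48 for cholesterol and SREBP lipid synthesis, beside 0.07 for all genes.

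Nes, Vim and Sox2, core identity genes of neural stem cells, differed little. Other identity markers chosen with them did differ: Prom1 and Msi1 were called higher and Sox1, Sox9 and Fabp7 lower, as given below. Nes, the Nestin filament gene, read 9.78, 9.73 and 9.91 in yNSCs and 9.65, 9.67 and 9.55 in NSCs (difference 0.18, SE 0.121, adjusted p = 0.27). Vim, the vimentin gene, differed by 0.10 (adjusted p = 0.471) and Sox2 by -0.26 (adjusted p = 0.0827), at means of 11.55 in yNSCs, 11.81 in NSCs and 10.37 in neurons. None of the 3 passed the test, which does not show that they were equal. Sox2 read 11.49 to 11.61 in yNSCs and 11.68 to 11.92 in NSCs, which do not overlap. It was called lower with a variance trend and robust prior and without NSCs A. Against the label, Nes, Sox2, Vim, Fabp7, Msi1 and Sox9 were above background in both groups, while Hes5 (-3.88), Sox3 (-3.71) and Egfr (-2.99) were far lower in yNSCs. Of the neuron markers, Tubb3, Dcx, Snap25 and Stmn2 had means of 10.19 to 12.94 in neurons and at most 6.58 on any yNSCs array. Tubb3, Snap25 and Stmn2 were nevertheless higher in yNSCs than in NSCs, and Dcx (-0.28) was not called. Rbfox3, also chosen as a neuron marker, was lower in yNSCs than in NSCs, and values of Mapt, another, are not given here.

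With these core genes included, 28 genes of radial glia and neural stem cells were counted, and 6 were called higher and 15 lower, with a median of -0.38. Prom1, the CD133 surface protein, rose from 6.70, 6.87 and 6.98 in NSCs to 8.54, 8.56 and 8.56 in yNSCs (difference 1.70, adjusted p = 1.82e-06), and Cd9 (0.92), Hopx (0.81), Nr2e1 (0.63) and Msi1 (0.61) were also higher. The glutamate transporter Slc1a3 was called higher (1.15), but another of its probe sets was called lower. Sox3, an SRY-related factor of neural progenitors, read 6.68, 6.61 and 6.67 in yNSCs against 10.48, 10.51 and 10.10 in NSCs, 5.70 being the mean in neurons (difference -3.71, SE 0.144, adjusted p = 3.04e-09). The other Sox3 probe set was not called. Its relative Sox1 fell by 1.20 on the log2 scale, and the cilium factor Rfx4 (-1.80), the matrix protein Tnc (-1.56), Fut4, which makes the CD15 epitope (-1.07), Gli3 (-1.05), Olig2 (-0.73), Sox9 (-0.45) and Fabp7 (-0.31) were lower too. Pax6 read 7.22 to 7.45 in yNSCs and 7.28 to 7.99 in NSCs, which overlap.

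Notch signaling passes from a ligand on 1 cell to a receptor on its neighbor and acts through the DNA-binding protein Rbpj to switch on Hes and Hey repressors. Of 25 Notch pathway genes, 14 were called lower and 3 higher, with a median of -0.54. The target Hes5 read 4.33, 4.10 and 4.22 in yNSCs and 7.89, 7.97 and 8.42 in NSCs, with a mean of 5.05 in neurons (difference -3.88, SE 0.155, adjusted p = 3.73e-09). Its yNSCs values lay below those of the neuron mean and far under every NSCs array. The ligands Dll3 (-3.11) and Dll1 (-2.19), the receptors Notch3 (-1.46) and Notch1 (-1.41), the feedback regulator Nrarp (-1.60), the fringe enzymes Mfng (-1.37) and Lfng (-0.75), the coactivator Maml1 (-1.26) and the target Hes1 (-1.10) were lower as well. Jag1 (-0.19), Notch2 (-0.25), Rbpj (0.01) and Hey1 (0.20) did not pass the test, and Maml2 (1.27), Numbl (0.53) and Jag2 (0.34) were higher. With the mean of all probe sets per gene the median of the list was -0.07, with 10 members lower and 2 higher.

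Proneural genes drive commitment to neurons, and they were listed together with genes of intermediate progenitors. Of that list, Neurod6, Neurod4 and Tbr1 were near background in both groups. Of its 14 genes, 5 were lower and 1 was higher, with a median of 0.11. The share called was 42.9%, near the 39.3% of all genes. Insm1, a zinc finger factor of neuron-producing progenitors, read 4.21, 4.21 and 4.06 in yNSCs and 6.38, 6.35 and 6.29 in NSCs (difference -2.18, adjusted p = 1.58e-08), and Btg2 (-1.64) and Sox11 (-1.12) were lower. Without NSCs A, NSCs B, yNSCs A or yNSCs C the single higher call, that of Neurog1 (0.35), was lost.

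EGF signals through the receptor Egfr, and both cultures received it in the medium. Egfr itself read 8.50, 8.39 and 8.08 in yNSCs and 11.11, 11.43 and 11.40 in NSCs, with a mean of 8.01 in neurons (difference -2.99, SE 0.137, adjusted p = 1.02e-08). Its level in yNSCs was thus near that of neurons and below every NSCs array. The ligands went the other way. Hbegf, the heparin-binding ligand, read 11.18, 11.24 and 11.59 in yNSCs against 8.72, 8.15 and 8.05 in NSCs (difference 3.03, adjusted p = 9.76e-08). Betacellulin (Btc) was higher by 3.48, epiregulin (Ereg) by 3.23 and Tgfa by 2.31, and Ereg was near background in NSCs. Errfi1, which inhibits Egfr, read 8.18, 8.72 and 9.73 in yNSCs and 7.50 to 7.71 in NSCs (difference 1.25, adjusted p = 0.00388). In all, 5 of 14 genes of the Egf receptor family and its ligands were higher and 2 lower, the other being Erbb2 (-0.72), with a median of 0.27. Egf (0.33), Nrg1 (0.30) and Erbb3 (0.16) did not pass the test.

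Fibroblast growth factor receptors were nearer each other. Fgfr1 (-0.06) and Fgfr3 (0.08) overlapped between the groups, whereas Fgfr2 read 7.97, 7.80 and 7.89 in yNSCs and 6.77 to 6.83 in NSCs (difference 1.08, adjusted p = 5.3e-06). Feedback genes that ERK signaling switches on went both ways. Spry4, a Sprouty inhibitor, read 7.94, 8.04 and 7.51 against 10.69, 9.85 and 10.10 in NSCs (difference -2.38, adjusted p = 1.63e-06), and Spry1 (-2.03), Etv4 (-0.96), the phosphatase Dusp6 (-0.61) and Spry2 (-0.41) were lower too, as was the ligand Fgf1 (-1.56). Etv5 (-1.15) had another probe set called higher. The phosphatases Dusp5 (1.69) and Dusp4 (0.75) were higher, and Ier3 (-0.28) and Spred2 (0.25) were not called. Over the list, 9 of 19 genes were lower and 3 higher, with a median of -0.28. With the mean of all probe sets 9 were lower and 5 higher.

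**Figure D4:**
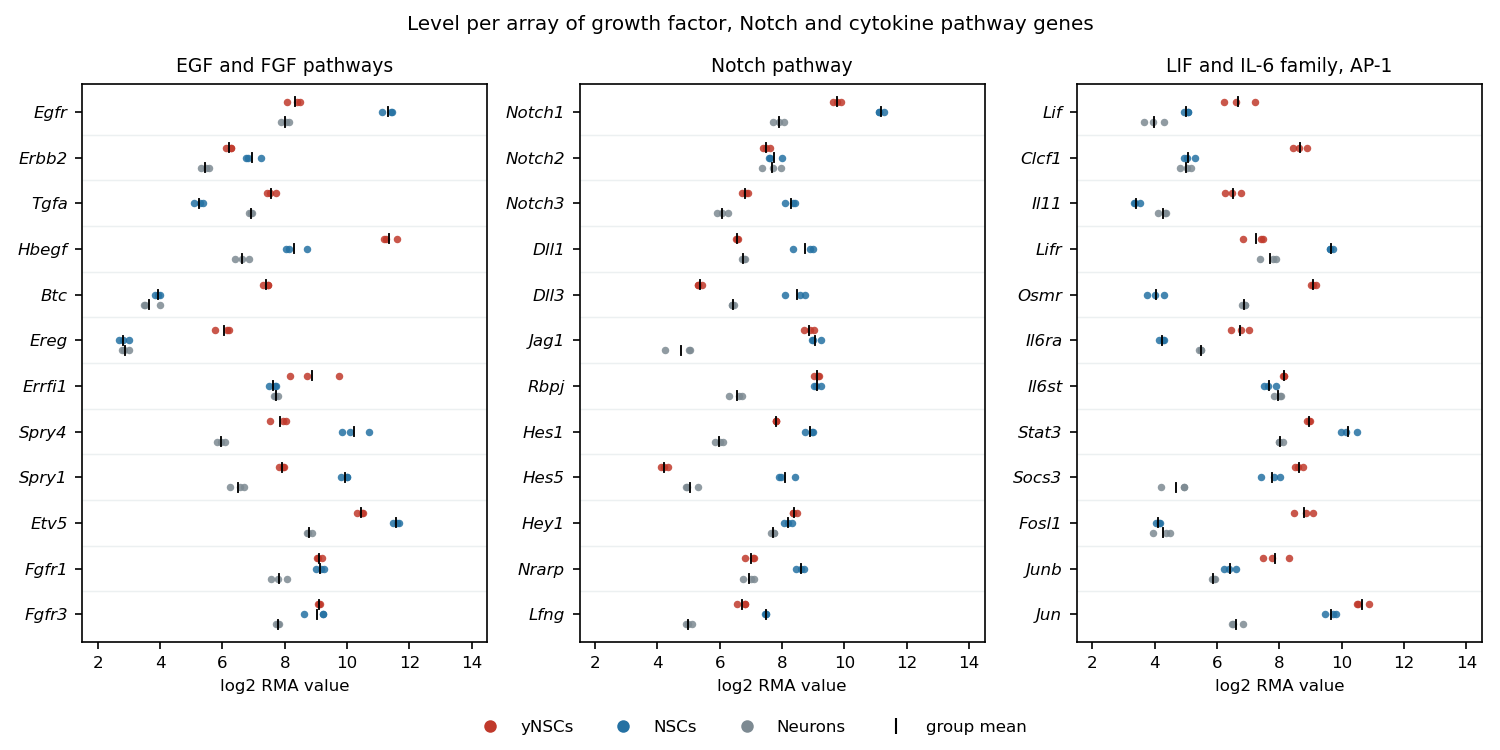
Log2 RMA value on each of the 9 arrays for 36 genes of the EGF and FGF pathways, the Notch pathway and the LIF and IL-6 family with AP-1; points are arrays, colored by group, with a black line at the group mean. Egfr (-2.99), Hes5 (-3.88) and Lifr (-2.42) are lower in yNSCs than in NSCs, whereas Btc (3.48), Osmr (5.06) and Fosl1 (4.69) are higher.

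The cytokines of the LIF and IL-6 family act through receptors that share the chain Il6st (gp130) and activate Stat3. Of 13 family genes, 10 were higher and 2 lower, with a median of 1.67. The receptors changed in opposite directions. Osmr, the oncostatin M receptor, read 9.16, 9.07 and 9.01 in yNSCs and 3.76, 4.01 and 4.30 in NSCs (difference 5.06, SE 0.130, adjusted p = 1.89e-10), and Il6ra was higher by 2.51. Lifr, the LIF receptor, read 7.46, 7.41 and 6.83 in yNSCs and 9.63, 9.61 and 9.73 in NSCs (difference -2.42, adjusted p = 4.24e-07), and Stat3 was lower (-1.24). Among ligands, Clcf1 (3.58), Il11 (3.09, from near background) and Lif (1.67) were higher, Il6 was called (0.86) but was near background in both groups and Osm did not pass the test (0.07). The feedback inhibitors Socs1 (1.90) and Socs3 (0.87) and the shared chain Il6st (0.46) were higher. Without the 40% of genes of lowest mean, 5 of 8 members left were higher and the median was 0.67.

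AP-1 factors are dimers of Fos and Jun proteins that answer growth and stress signals. Fosl1, which encodes Fra-1, read 8.46, 8.85 and 9.09 in yNSCs and 4.18, 4.03 and 4.12 in NSCs (difference 4.69, SE 0.171, adjusted p = 1.8e-09). Atf3 (2.14), Junb (1.45), Fosl2 (1.15), Jun (0.97) and Mafg (0.66) were higher as well, and Fosb (0.71) too, from near background. Fos, at 10.04, 10.31 and 10.91 in yNSCs and 9.64, 9.84 and 10.14 in NSCs, was called (0.55, adjusted p = 0.0485) although its arrays overlapped. Atf3, Maff and Junb had their highest value on yNSCs C. In all, 9 of 13 subunit genes were higher and the other 4 were not called, with a median of 0.71. Without NSCs C, 8 were higher and 1 was lower. Only 7 were higher without NSCs A, NSCs B, yNSCs B, yNSCs C, Neurons A or Neurons C. The same count came with only the 6 arrays compared and with quantile normalization again. Maff (0.87) lost its call in each of these settings and without NSCs C.

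Genes that type I interferon switches on, which act against viral RNA and DNA, were higher almost throughout. Of 27 such genes, 24 were called higher and 3 were not called, with a median of 1.83, and without yNSCs C, 23 were higher and 1 was lower. Ifit3 read 9.08, 9.78 and 10.52 in yNSCs A, B and C and 3.51, 3.79 and 3.49 in NSCs, with a mean of 4.52 in neurons (difference 6.20, SE 0.279, adjusted p = 9.1e-09). Ifit1, near background in NSCs, read 7.40, 8.24 and 9.27 against 2.89, 2.89 and 2.97 (difference 5.39, SE 0.344, adjusted p = 1.56e-07). Their spread among yNSCs was wide, yNSCs C being highest, but it was small beside the gap to NSCs. Usp18, which removes ISG15 from proteins (4.77), Xaf1 (4.58), the guanylate-binding Gbp2 (4.29), Rtp4 (4.01), Trim30a (3.81), Oasl2 (3.61, from near background), Ifi27 (3.13), Ifit2 (2.76) and viperin, Rsad2 (2.51), followed. The transcription factors Irf9 (1.83), Irf7 (1.03) and Irf1 (0.91) and the RNA sensor Ifih1 (1.87) were higher, while Stat2 (0.34), Oas1a (0.43) and Bst2 (-0.39) did not pass the test and Mx1 (0.49) was called higher although it was near background in both groups. The mean level over the 27 genes was 6.75 to 7.43 on the yNSCs arrays, 4.74 to 4.91 on the NSCs arrays and 4.80 to 4.92 on the neuron arrays.

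The DNA element through which interferon acts is a repeat of GAAA. Promoters of 250 bases before to 50 bases after the start, from RefSeq on GRCm38.p6, were searched on both strands for 2 copies of GAAA with 2 bases between them. The repeat was found in 11 of 21 interferon-stimulated genes with a promoter entry (52.4%) and in 524 of 14452 genes in all (3.63%), and of 6 other lists searched the highest share was 18.2%, for MHC class I genes. Matches may overlap each other. They are letters in a window and no measure of binding, and Bst2, Oas1a and Stat2, which were not called, hold the repeat as well. The promoters of Ifit3 (chr19:34583279-34583578, plus strand), Ifit1 (chr19:34640639-34640938, plus strand) and Gbp2 (chr3:142620413-142620712, plus strand) are shown as those that hold it among the 5 highest genes of the list. Of the other two, Xaf1 holds none in this window and Usp18 had no promoter entry. Capitals mark the repeat, which reads TTTC in this direction, and it occurs 2 times in Ifit3, 2 times in Ifit1 and 1 time in Gbp2.
Ifit3: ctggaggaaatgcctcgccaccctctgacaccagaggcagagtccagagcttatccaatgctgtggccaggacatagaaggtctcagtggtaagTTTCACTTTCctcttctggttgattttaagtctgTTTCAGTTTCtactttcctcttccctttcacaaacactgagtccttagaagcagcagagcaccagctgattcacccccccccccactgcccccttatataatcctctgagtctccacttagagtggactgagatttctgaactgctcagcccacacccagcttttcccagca
Ifit1: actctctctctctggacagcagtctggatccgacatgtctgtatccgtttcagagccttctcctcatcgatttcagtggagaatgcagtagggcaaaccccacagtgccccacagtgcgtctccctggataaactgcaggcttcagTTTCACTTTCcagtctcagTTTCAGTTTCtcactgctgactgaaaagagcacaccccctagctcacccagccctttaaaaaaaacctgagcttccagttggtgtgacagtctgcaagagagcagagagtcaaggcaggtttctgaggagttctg
Gbp2: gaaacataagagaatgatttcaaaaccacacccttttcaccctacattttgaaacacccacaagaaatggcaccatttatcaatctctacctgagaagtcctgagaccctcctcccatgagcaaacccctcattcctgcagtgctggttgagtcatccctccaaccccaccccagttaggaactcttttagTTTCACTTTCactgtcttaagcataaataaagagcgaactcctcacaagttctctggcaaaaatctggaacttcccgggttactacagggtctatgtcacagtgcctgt

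Antigen presentation by MHC class I, which interferon also raises, was higher for 10 of 14 genes and lower for 1, with a median of 0.76. The immunoproteasome subunits Psmb8 (1.73) and Psmb9 (0.97), the checkpoint ligand Cd274 (1.71), the peptide trimmer Erap1 (1.41) and the light chain B2m (0.95) were higher. H2-K1, a class I heavy chain, went the other way, at 9.84, 9.81 and 10.21 in yNSCs and 10.87, 10.97 and 10.83 in NSCs (difference -0.94, adjusted p = 0.000118), and H2-D1 (0.21) and Tap1 (0.04) overlapped. H2 heavy chains are alike in sequence, so their probe sets may share signal. Of 19 chemokines and inflammatory mediators, 16 were higher and 3 were not called, with a median of 2.03. Ptgs2, the inducible cyclooxygenase, read 8.42, 8.68 and 8.80 in yNSCs and 2.74, 3.17 and 2.88 in NSCs (difference 5.70, SE 0.132, adjusted p = 1.07e-10). Cxcl10 (4.99), Vcam1 (3.24), the alarmin Il33 (3.07), Cxcl2 (3.03, from near background), Ccl2 (2.99), Cxcl1 (2.39) and Ccl7 (2.35) were higher, and Ccl2 read 7.45, 8.07 and 9.37 in yNSCs against 5.12 to 5.57 in NSCs. Tnf (0.08) and Saa3 (0.05) did not pass the test.

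**Figure D5:**
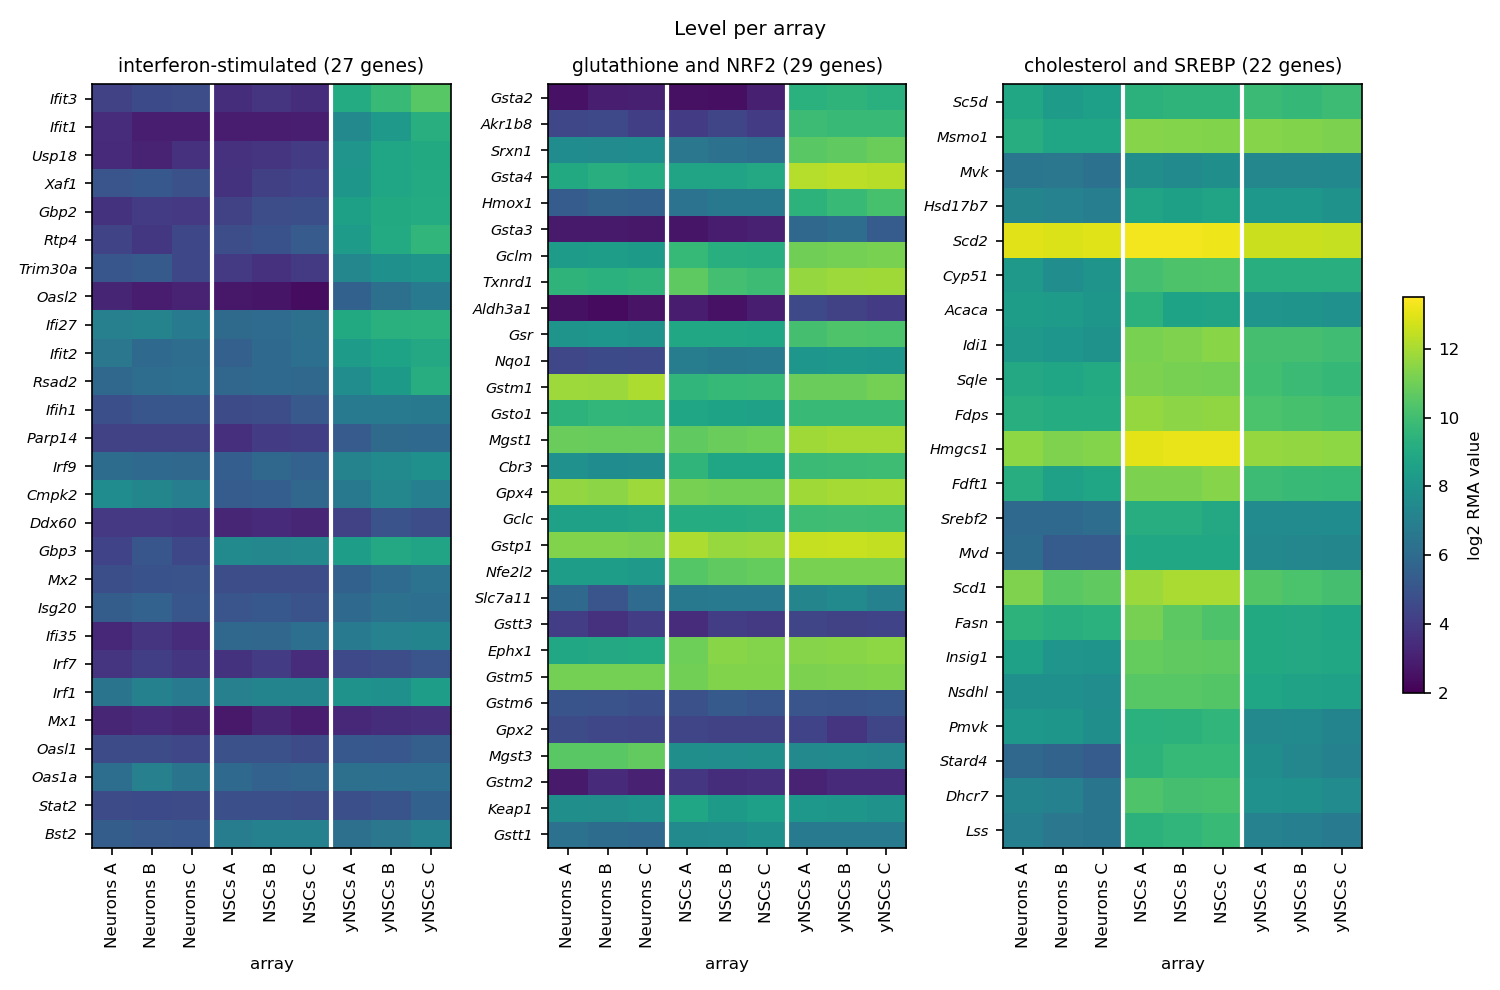
Log2 RMA value (color) on each of the 9 arrays for all measured genes of 3 lists, ordered by the difference yNSCs minus NSCs; white lines part neurons, NSCs and yNSCs. Most of the 27 interferon-stimulated and of the 29 glutathione and NRF2 genes are brighter on the yNSCs arrays (24 and 20 called higher), and most of the 22 cholesterol genes are brighter on the NSCs arrays (19 called lower in yNSCs).

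NRF2 (gene Nfe2l2) is a transcription factor that answers oxidants and electrophiles by switching on genes of glutathione synthesis and conjugation. Of 29 glutathione and NRF2 genes, 20 were higher and 3 lower, with a median of 0.85; without NSCs A or without yNSCs C, 19 were higher and 1 lower. Besides Gsta2 (6.69), Akr1b8, an aldo-keto reductase, read 9.90, 9.79 and 9.78 in yNSCs and 4.03, 4.40 and 4.03 in NSCs (difference 5.67, SE 0.138, adjusted p = 1.07e-10). Sulfiredoxin (Srxn1) read 10.56, 10.68 and 10.93 against 6.58, 6.31 and 6.16 (difference 4.37, adjusted p = 4.1e-10). The yNSCs arrays lay close together for both, and far above every NSCs array. The glutathione transferases Gsta4 (3.48) and Gsta3 (2.88, from near background), heme oxygenase Hmox1 (3.24), the ligase subunits Gclm (1.73) and Gclc (0.80), Txnrd1 (1.58), Gsr (1.40), Nqo1 (1.33) and Gpx4 (0.83) were higher. The cystine carrier Slc7a11 (0.53, adjusted p = 0.0812) and Gstm5 (0.05) did not pass the test, and Gstt1 (-0.90) and Mgst3 (-0.30) were lower. Nfe2l2 itself (0.53) and its inhibitor Keap1 (-0.47) each had another probe set called the opposite way.

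The antioxidant response element core TGACNNNGC, on either strand, was present in the promoters of 7 of 24 of these genes (29.2%) and of 16.2% of all genes. The share was 25% both for AP-1 genes and for cholesterol genes, most of which were lower. Of the alpha-class transferases Gsta3 holds it, and its promoter (chr1:21240335-21240634, plus strand, GRCm38.p6, RefSeq) is shown for that reason, with the match in capitals.
Gsta3: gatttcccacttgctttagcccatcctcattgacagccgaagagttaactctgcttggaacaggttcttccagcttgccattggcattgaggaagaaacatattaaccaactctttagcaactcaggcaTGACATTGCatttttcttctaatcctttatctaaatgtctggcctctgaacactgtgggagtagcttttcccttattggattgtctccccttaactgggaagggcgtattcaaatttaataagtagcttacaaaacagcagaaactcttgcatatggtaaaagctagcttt

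Galectins, the hyaluronan receptor Cd44, S100 proteins and annexins bind sugars, matrix, calcium and membranes and mark astrocytes that react to injury as well as macrophages. Of 20 such genes, 14 were higher and 6 were not called, with a median of 1.89. S100a6 read 11.40, 11.51 and 11.49 in yNSCs and 6.15, 6.09 and 5.79 in NSCs, with a mean of 6.69 in neurons (difference 5.46, SE 0.132, adjusted p = 1.07e-10). S100a4 (4.82), annexin A1, Anxa1 (4.70), Anxa7 (3.19), S100a1 (3.10), Anxa5 (2.49), Anxa4 (2.10) and Lgals3bp (1.95) were higher. Cd44 read 11.85, 11.77 and 11.77 in yNSCs against 9.41, 9.00 and 9.09 in NSCs and 5.71 in neurons (difference 2.63, adjusted p = 5.75e-08). Lgals1 (0.33), Anxa6 (-0.30) and Anxa3 (-0.39) did not pass the test.

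Markers of astrocytes were higher for 9 of 19 genes and lower for 3, with a median of 0.29. Gfap read 9.15, 9.15 and 9.38 in yNSCs, 3.65, 3.84 and 3.92 in NSCs and 7.62 on average in neurons (difference 5.42, SE 0.182, adjusted p = 1.04e-09). Aqp4, the water channel of astrocyte endfeet, read 9.82, 9.80 and 9.78 in yNSCs and 3.40, 5.62 and 5.90 in NSCs, the lowest value being that of NSCs A (difference 4.83, SE 0.477, adjusted p = 6.3e-06). The lipid carriers Apoe (4.37) and Clu (4.05), the protease inhibitor Cst3 (2.16), Ndrg2 (1.78) and the glutamate transporter Slc1a2 (1.23) were higher. Other astrocyte genes were not: Aldh1l1 (-0.04), Fgfr3 (0.08) and Glul (-0.25) did not pass the test, and Aldoc was lower (-1.20). The mean level over the list was 9.69 to 9.84 in yNSCs, 8.20 to 8.60 in NSCs and 9.47 to 9.55 in neurons. In such cultures more cells of a type and more RNA per cell cannot be told apart.

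Markers of microglia and macrophages were higher for 11 of 18 genes and lower for 1, with a median of 0.65. The lysosomal Lyz2 read 8.52, 8.56 and 8.75 in yNSCs and 4.15, 4.36 and 4.12 in NSCs, and 11.18 on average in neurons (difference 4.40, adjusted p = 1.55e-09), and Cd68 (4.20) and Ctss (2.51) were higher. Among genes that define microglia, Aif1 read 2.76 to 2.91, Itgam 2.93 to 3.07 and Ptprc 3.07 to 3.18 in yNSCs, all near background. Tyrobp (1.6), C1qb (1.36), C1qa (1.21), Csf1r (1.16), C1qc (0.66), P2ry12 (0.64) and Tmem119 (0.54) were called higher, Tyrobp at means of 5.25 in yNSCs, 3.65 in NSCs and 10.13 in neurons and Csf1r at 5.67, 4.52 and 8.78. The mean level over the list was 5.04 to 5.13 in yNSCs, 3.99 to 4.08 in NSCs and 7.33 to 7.73 in neurons, and what part such cells had in the levels of Lgals3, Lyz1 or Cd68 was not tested. Cd14 was lower (-1.44).

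Neuronal genes did not move together. Of 22 pan-neuronal genes, 5 were higher and 9 lower, with a median of -0.22. The SNARE protein gene Snap25 read 6.58, 6.47 and 6.20 in yNSCs, 3.96, 4.41 and 4.51 in NSCs and 12.23 in neurons (difference 2.12, adjusted p = 3.72e-07), and Uchl1 (2.47), Nefl (2.03), Stmn2 (1.93) and Tubb3 (1.28) were higher. Syt1, a calcium sensor of synaptic vesicles, read 4.66, 4.31 and 3.98 in yNSCs and 6.95 to 7.24 in NSCs (difference -2.75, adjusted p = 5.64e-08), and Elavl4 (-2.81), Gap43 (-2.29), Rbfox3 (-1.92) and Map2 (-1.76) were lower. Each of these 10 genes stood below its neuron mean in both groups, and nearest to it were Map2, at 12.17 in neurons and 11.43 to 11.61 in NSCs, and Elavl4, at 8.83 in neurons and 7.51 to 8.14 in NSCs.

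Oligodendrocyte precursor markers were lower for 7 of 13 genes and higher for 1, with a median of -0.48. Bcas1 read 6.11, 6.10 and 6.12 in yNSCs and 9.95, 10.32 and 10.49 in NSCs (difference -4.14, adjusted p = 9.42e-09). The PDGF receptor Pdgfra (-3.12), Lhfpl3 (-2.57), the NG2 proteoglycan Cspg4 (-2.20) and Nkx2-2 (-1.22) were lower, whereas Olig1, at 12.75 to 12.79 in yNSCs and 12.79 to 12.98 in NSCs, and Sox10 overlapped. Of 11 myelin genes 1 was higher and 2 lower, and of 12 endothelial genes 3 higher and 1 lower. Of 16 mural cell and fibroblast genes 4 were higher and 5 lower, and of 12 ependymal genes 4 higher and 1 lower. The shares called were 27.3% for myelin, 33.3% for endothelial, 56.2% for mural cell and fibroblast and 41.7% for ependymal genes, beside 39.3% of all genes. The endothelial Pecam1, Tek, Tie1 and Vwf were near background in both groups, and the median of the endothelial list was 0.00. Of 14 pluripotency genes 2 were higher and 2 lower (28.6% called), with Pou5f1 (0.06) and Nanog (-0.07) near background in both groups and Klf4 lower (-1.51). Only 1 of them was higher without NSCs B or without any 1 of the yNSCs arrays.

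Genes of the G2 and M phases, when chromosomes condense and part, were lower for 19 of 22 genes and not called for 3, with a median of -1.11. Cdc20, an activator of the anaphase-promoting complex, read 9.44, 9.46 and 9.15 in yNSCs and 11.46, 11.20 and 11.24 in NSCs, and 6.35 on average in neurons (difference -1.95, SE 0.184, adjusted p = 4.37e-06). The motor Kif11 (-1.88), the cyclins Ccnb2 (-1.79) and Ccna2 (-1.49), the kinases Plk1 (-1.44), Bub1b (-1.44) and Aurkb (-1.27) and the cycling-cell marker Mki67 (-1.40) were lower. Cdk1 (-0.27) did not pass the test. For Cenpf, Cenpe, Nusap1 and Top2a the NSCs A array lay near the yNSCs arrays, as with Cenpe at 7.54 beside 8.75 and 8.88. Mki67 still read 9.54 to 9.79 in yNSCs against 6.41 on average in neurons. The transcription factor Foxm1 (-0.32), which was not called, read 6.05 to 6.41 in yNSCs, 6.35 to 6.78 in NSCs and 6.75 in neurons. These are values of the brightest of its 4 probe sets. With the mean of all of them, without NSCs C or without yNSCs C, Foxm1 was called lower.

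Genes of S phase and DNA replication differed less, with 9 of 25 lower and 1 higher and a median of -0.24. Uhrf1 (-0.96), Rrm2 (-0.65) and Gins1 (-0.62) were lower, Rfc3 was higher (0.57), and Pcna (0.26) and most Mcm genes did not pass the test. The counts turned on single arrays and on the processing. They were 3 higher and 5 lower without NSCs A, 1 and 4 without yNSCs C, and 3 and 7 without Neurons B. With the mean of all probe sets 3 were higher and 5 lower, and with only the 6 arrays compared 3 and 7. Among inhibitors of cyclin-dependent kinases and p53 targets, 9 of 22 were lower and 4 higher, with a median of -0.32. With the mean of all probe sets 8 were lower and 7 higher, and without NSCs A 13 were lower and 4 higher. Cdkn1c, which encodes p57, read 4.93, 5.20 and 5.18 in yNSCs and 6.72, 7.65 and 7.16 in NSCs (difference -2.07, adjusted p = 5.17e-06), and Btg2 (-1.64), Cdkn2a (-1.42) and Cdkn1a (-0.55) were lower, while Gadd45a (1.48) and Fas (1.43) were higher. Of 11 D cyclins and fetal growth regulators, 5 were lower and 1 was higher, with a median of -0.10. That 1 was Hmga2, a chromatin protein of fetal stem cells, at 10.79, 10.72 and 10.52 in yNSCs, 7.30, 7.30 and 7.27 in NSCs and 5.85 in neurons (difference 3.39, SE 0.114, adjusted p = 1.07e-09). Igf2bp3 (-2.0), Mycl (-1.68), Mycn (-1.62), Myc (-0.87) and Ccnd2 (-0.85) were lower, and Ccnd1 (-0.10) overlapped.

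Cholesterol and fatty acid synthesis genes, which SREBP factors control, were lower for 19 of 22 genes and not called for 3, with a median of -1.48. Without Neurons A or without Neurons B, which enter only through the spread, 1 was higher. Lanosterol synthase (Lss) read 7.09, 6.98 and 6.73 in yNSCs and 9.40, 9.55 and 9.79 in NSCs, and 6.66 in neurons (difference -2.65, SE 0.155, adjusted p = 7.62e-08). Dhcr7, the last enzyme of the path (-2.49), the sterol carrier Stard4 (-2.25), Pmvk (-2.05), Nsdhl (-1.82), Insig1 (-1.79), Fasn (-1.77), Srebf2 itself (-1.51), Hmgcs1 (-1.47) and Sqle (-1.30) were lower, and their yNSCs values stood between those of neurons and NSCs for Dhcr7, Stard4, Nsdhl, Insig1, Srebf2, Hmgcs1 and Sqle. Msmo1 (-0.04), Mvk (-0.28) and Sc5d (0.35) did not pass the test. The sterol regulatory element TCACNNCAC, on either strand, was found in the promoters of 4 of 16 of these genes (25%) and of 4.39% of all genes, and Msmo1, which was not called, is among the 4. MHC class I genes, most of which were higher, held it in 3 of 11 promoters (27.3%). The promoter of Hmgcs1 (chr13:119690101-119690400, plus strand, GRCm38.p6, RefSeq) is shown as that of the enzyme at the entry of the path, with the match in capitals.
Hmgcs1: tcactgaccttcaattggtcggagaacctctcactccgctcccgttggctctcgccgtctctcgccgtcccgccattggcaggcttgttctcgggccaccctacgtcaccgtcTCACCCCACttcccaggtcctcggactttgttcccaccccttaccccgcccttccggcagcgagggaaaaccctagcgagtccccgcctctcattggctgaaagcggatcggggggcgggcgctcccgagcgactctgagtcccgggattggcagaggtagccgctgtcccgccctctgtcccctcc

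Glycolysis and hypoxia genes had no common direction, with 4 of 20 higher, 6 lower and a median of -0.17. Car9, a carbonic anhydrase induced by hypoxia, read 7.67, 7.28 and 7.52 in yNSCs and 4.06, 5.22 and 5.61 in NSCs (difference 2.53, adjusted p = 5.25e-05), and hexokinase Hk2 was lower (-1.03). NSCs A was lowest of its group for Car9, Vegfa and Bnip3. Without NSCs A, 3 were higher and 11 lower, and without NSCs B or without yNSCs C, 2 were higher and 4 lower.

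Yap1 was lower in yNSCs by its brightest probe set, at 9.18, 9.17 and 9.20 against 9.87, 9.52 and 9.78 in NSCs and 7.29 in neurons (difference -0.54, SE 0.145, adjusted p = 0.0104), and this call was lost with the mean of all its probe sets. Whether this probe set detects the introduced YAP was not tested. Wwtr1, which encodes TAZ, read 10.95, 10.84 and 10.70 in yNSCs and 10.16, 10.53 and 10.44 in NSCs (difference 0.45, adjusted p = 0.0531). It was not called, although its arrays did not overlap. It was called higher with only the 6 arrays compared, without the 40% of genes of lowest mean and with each array's median subtracted. The same held with the mean of its probe sets, with a variance trend and robust prior, and without Neurons A or Neurons B. The TEAD factor Tead1 (0.04) overlapped, whereas Tead2 read 7.63, 7.59 and 7.61 in yNSCs and 9.69, 9.42 and 9.19 in NSCs (difference -1.82, adjusted p = 1.08e-06). The upstream regulators Wwc1 (-1.54), Vgll4 (-0.93), Amot (-0.80) and Nf2 (-0.59) were lower, Lats2 was higher (0.53), and Lats1 (0.05) and Sav1 (-0.13) did not pass the test. Of 19 Hippo pathway genes, 8 were lower and 2 higher, with a median of -0.10. With the mean of all probe sets 5 were lower and 4 higher, and the calls of Amot and Nf2 were lost. The higher calls, Lats2 and Tead4, were both lost without NSCs B or without yNSCs B, and 1 of them was lost without Neurons C, NSCs A, NSCs C, yNSCs A or yNSCs C.

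Established YAP/TAZ target genes split: 11 of 25 were higher and 8 lower, with a median of 0.08, close to that of all genes. Ccn1 (Cyr61) read 8.42, 9.03 and 9.97 in yNSCs and 6.13, 6.07 and 6.11 in NSCs, and 6.40 in neurons (difference 3.04, SE 0.284, adjusted p = 4.01e-06). Ccn2 (Ctgf) read 6.07, 6.63 and 7.22 against 4.49, 4.37 and 4.43 (difference 2.21, adjusted p = 1.6e-05). The receptor kinase Axl read 8.64, 8.57 and 8.88 against 5.95, 6.56 and 6.39 (difference 2.40, adjusted p = 1.08e-06). All 3 stood above every NSCs array, and the matricellular Ccn1 and Ccn2 were highest on yNSCs C. Tissue factor F3 (3.39), Myof (2.19), Gadd45a (1.48), Igfbp3 (1.07) and Dock5 (0.92) were higher too. Rbms3 (-1.65), Wwc1 (-1.54), Birc5 (-1.19), Nuak2 (-0.83), Fjx1 (-0.78) and Crim1 (-0.75) were lower, and Ankrd1 was near background in both groups.

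Wnt pathway genes were lower for 9 of 20 and higher for 2, with a median of -0.23. Nkd1, a feedback inhibitor, read 3.69, 3.14 and 3.76 in yNSCs and 6.47, 7.03 and 6.61 in NSCs (difference -3.17, adjusted p = 8.33e-08), and the receptor Fzd9 (-2.57), the ligand Wnt5a (-1.89), Sfrp2 (-1.83), Lgr5 (-1.69) and the target Axin2 (-1.14) were lower. The ligand Wnt7b was the exception at 9.60, 9.54 and 9.72 in yNSCs against 7.21 to 7.48 in NSCs (difference 2.27, adjusted p = 1.67e-08). The other higher call, that of Dkk3 (0.35), left 1 higher gene without NSCs A, NSCs B or any of the yNSCs arrays. Of 17 BMP and Id genes, 8 were higher and 3 lower, with a median of 0.35. Id1, an inhibitor of differentiation that BMP induces, read 11.01, 10.99 and 11.13 in yNSCs and 8.45, 8.67 and 8.72 in NSCs (difference 2.43, adjusted p = 2.33e-07), and Id4 (2.40) was also higher, while Id3 overlapped and the receptor Bmpr1b was lower (-2.41). TGF-beta genes were mixed, at 5 of 13 higher, 4 lower and a median of 0.13. Ltbp1, which holds latent TGF-beta in the matrix, was higher (2.47) and Tgfbr2 was lower (-1.28).

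Contractile and cytoskeletal genes were higher for 9 of 18 genes and lower for 1, with a median of 0.26. Tagln, a smooth muscle actin-binding protein, read 11.71, 11.87 and 12.21 in yNSCs and 7.18, 7.18 and 7.07 in NSCs, and 5.72 in neurons (difference 4.79, SE 0.150, adjusted p = 6.04e-10). Besides Cnn1 (5.32), Actn1 (2.32), Myl9 (1.75), Tpm2 (1.75), Acta2 (1.68) and Tpm1 (1.42) were higher. Flna (0.04) and Myh9 (-0.19) overlapped. The single lower call, that of Tpm4 (-0.29), was lost without any 1 of the NSCs arrays, yNSCs A or yNSCs B, and 2 were lower without Neurons C. Tagln and Acta2 also mark mural cells, and of that list Rgs5 (0.63) and Dcn (0.43) were higher as well. Pdgfra (-3.12), Cspg4 (-2.20), Col3a1 (-1.98), Col1a2 (-0.77) and Col1a1 (-0.39) were lower, and Pdgfrb, Vtn and Kcnj8 were not called, with means of 3.94, 3.20 and 3.20 in yNSCs. The part of such cells in these levels was not tested.

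Matrix genes were divided. Of 28 matrix glycoproteins and lecticans, 8 were higher and 9 lower, with a median of 0.03. Fibronectin (Fn1) read 10.81, 10.58 and 10.96 in yNSCs and 8.26, 8.18 and 8.04 in NSCs (difference 2.62, adjusted p = 1.07e-08), whereas tenascin-R (Tnr) read 4.54, 4.25 and 4.64 against 8.45, 7.91 and 7.97 (difference -3.63, adjusted p = 1.05e-08). Fbln2 (-3.24), Igfbp5 (-2.81) and Cspg4 (-2.20) were lower and Efemp1 (2.37) and Thbs1 (1.73) higher. Of 20 collagen chains 6 were higher, led by Col6a1 (2.19), and 5 lower, led by Col3a1, and 3 were lower without NSCs C or without yNSCs C. Of 20 integrin and laminin genes 6 were higher and 6 lower. The alpha subunit Itga4 read 5.17, 4.90 and 5.13 in yNSCs and 8.87, 8.72 and 8.84 in NSCs (difference -3.74, adjusted p = 1.46e-09), and Itga6, a surface marker of neural stem cells, was lower (-2.27). Among metalloproteinases and their inhibitors 8 of 20 were higher and 6 lower. Timp1 read 11.67, 11.67 and 11.63 in yNSCs, 7.61 to 7.85 in NSCs and 3.53 in neurons (difference 3.91, adjusted p = 1.6e-08). Stromelysin (Mmp3) was higher by 4.65, and Adam12 (-2.67), Mmp2 (-1.75) and Adamts9 (-1.63) were lower.

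Transcription factors that mark brain regions differed as well. En2, a midbrain and hindbrain factor, read 2.72, 2.93 and 2.94 in yNSCs, near background, 6.73, 6.71 and 6.75 in NSCs and 2.99 in neurons (difference -3.87, SE 0.120, adjusted p = 5.84e-10). Gbx2 (-2.44, near background in yNSCs) and Otx2 (-2.55), which meet at the midbrain-hindbrain boundary, were lower too. Zic1 read 7.38, 7.38 and 7.12 against 10.33, 10.53 and 10.66 in NSCs (difference -3.21, adjusted p = 6.6e-09). Dlx1 and Dlx2, factors of the ventral forebrain, went the other way, Dlx1 at 6.10, 6.12 and 6.04 in yNSCs, 4.02, 4.27 and 4.69 in NSCs and 9.09 in neurons (difference 1.76, adjusted p = 1.51e-06) and Dlx2 higher by 1.23. Emx2 (-0.03), Otx1 (0.17) and Emx1 (0.19), of the dorsal forebrain, did not pass the test. Of 19 forebrain factors 2 were higher and 8 lower (median -0.22). Of 23 midbrain, hindbrain and spinal cord factors 1 was higher and 5 lower (median 0.00), with 7 near background in both groups. Of these 23, 26.1% were called, below the 39.3% of all genes. The higher call, Hoxa5 (0.42), was lost without NSCs A, NSCs B, yNSCs B or yNSCs C, and 2 were higher without Neurons B.

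Imprinted genes, of which 1 parental copy is silenced, included some of the larger differences in both directions, at 7 of 20 higher, 9 lower and a median of -0.19. Dlk1, a Notch-related membrane protein, read 8.59, 8.71 and 9.26 in yNSCs and 4.67, 4.66 and 4.98 in NSCs (difference 4.08, adjusted p = 4.47e-09). Meg3 (2.47) and Rian (2.01), noncoding RNAs of the same imprinted domain, were also higher, with neuron means of 12.35 and 8.86, whereas Dlk1 was at 5.23 in neurons. Peg3 read 6.21, 6.31 and 5.84 in yNSCs against 9.02, 9.38 and 9.48 in NSCs (difference -3.17, adjusted p = 1.28e-08), and Grb10 (-2.15), Cdkn1c (-2.07), Nnat (-1.92) and Mest (-1.40) were lower. Igf2 (-0.19) and Ndn (-0.19) did not pass the test. Xist and the Y-linked Eif2s3y were both read on every stem cell array, Xist at 11.52 to 12.09 and Eif2s3y at 7.03 to 7.91, and of 4 sex-linked genes Xist alone was called, lower in yNSCs (-0.36). That call was lost without NSCs B, yNSCs A or yNSCs B, and 2 were lower without NSCs A.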

How the data were processed

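Total RNA was extracted with Trizol, turned into biotinylated cRNA and hybridized to Affymetrix mouse arrays. The deposited log2 values, 45101 per array, were background corrected, normalized between arrays and summarized with RMA by the authors (its version, and which arrays were normalized with each other, are not given in the sources used here). Groups followed the array titles. Through the platform annotation 34945 probe sets named 1 gene, 932 named several and 9160 are unnamed here, and 64 were controls. The probe set of highest mean over 9 arrays stood for each of 18193 genes. Differences were tested with limma 3.58.1 in R 4.3.3 (lmFit and eBayes, 3 group means, all 9 arrays, residual df 6, prior df 5.59, two-sided), and a gene was called at a Benjamini-Hochberg adjusted p under 0.05. In simulated data for these 18193 genes with normal noise, 50 genes were changed by each fold tried. There the fit found 42% of 1.5-fold, 88% of 2-fold, 98% of 4-fold and 100% of 8-fold changes, and 6.29% of its calls were false. Far fewer genes were changed in the simulation than the 39.3% called on the arrays, so these rates need not hold for the calls reported. The rule for named genes took the 15 highest and 15 lowest calls among genes whose yNSCs and NSCs arrays did not overlap. It also took up to 6 called and 3 not called members of each list by size of difference, and fixed genes. Other genes named were chosen after their values were seen. The members and lists were chosen with earlier results of these data known. The alternatives tried were a replicate block, only the 6 arrays compared, a filter on low values, another normalization or centring, the mean of probe sets, single probe sets, another variance model, a minimum fold and leaving out each array.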

Additional observations from a re-analysis of the deposited data

How the results depend on the processing

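Counts of genes called higher and lower (3876 and 3277) were 4166 and 3379 with only the 6 arrays compared, 3496 and 3355 with quantile normalization again, 4217 and 3151 with a gene's probe sets averaged, 3923 and 3335 with a variance trend and robust prior, and 3136 and 3069 of 10916 genes without the 40% of genes of lowest mean. With each array's median subtracted they were 4325 and 3032, 58.8% of calls being higher in place of 54.2%. Each probe set on its own gave 7467 and 6467 of 34945, and a minimum of 2-fold 1101 and 1086. Without single arrays, 3248 to 4008 were higher and 2791 to 3330 lower. The replicate letters did not pair the arrays, as deviations of same-letter arrays correlated between -0.105 and 0.1, and a replicate block gave 3728 higher and 3191 lower.

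Of 364 named genes, 243 were called. Of these, 192 were tested and stayed called under all 16 settings, and 41 were not tested without the 40% of genes of lowest mean, where the genes called higher fell from 5 to 3 for EGF, from 10 to 5 for LIF and IL-6 and from 16 to 7 for chemokine genes, as fewer were tested. Sox4 turned to 0.05 with the mean of all probe sets. Without the 40% of genes of lowest mean, the list medians turned to -0.77 for proneural genes, -0.11 for TGF-beta genes and 0.43 for mural cell genes, and moved to -0.65 for Notch, 0.71 for EGF, -0.41 for FGF, 0.67 for LIF and IL-6, 2.19 for interferon, 0.61 for MHC class I, 2.39 for chemokines, 0.95 for NRF2, 2.10 for galectins, 0.79 for contractile, 0.92 for astrocyte and 1.19 for microglia genes. With the mean of all probe sets they were -0.30 for neural stem cell, -0.07 for Notch, 1.23 for LIF and IL-6, 0.01 for Hippo, 1.28 for interferon, -1.30 for cholesterol, 2.08 for galectin and 0.52 for astrocyte genes. Quantile normalization again gave 0.20 for EGF, -0.31 for FGF and 0.54 for microglia genes, and the subtracted median -0.34 for neural stem cell, -0.24 for FGF and 0.89 for NRF2 genes. Without single arrays, medians ran from -0.46 to -0.32 for neural stem cell, -0.58 to -0.45 for Notch, -0.39 to -0.19 for FGF, 1.40 to 1.88 for LIF and IL-6, 0.00 to 0.17 for YAP/TAZ target, -1.19 to -0.90 for G2 and M phase, 1.75 to 2.19 for chemokine, 0.82 to 0.98 for NRF2, 1.67 to 2.0 for galectin and 0.53 to 0.72 for microglia genes. In all, 85 of 656 list medians moved by more than the spread between arrays or turned. Mean correlations of arrays without the 40% of lowest genes were 0.99 within neurons, 0.986 within NSCs, 0.875 between NSCs and yNSCs, 0.616 between neurons and NSCs and 0.64 between neurons and yNSCs. The causes were not tested. Signals near background limit the folds of 32 genes over 8-fold higher and 9 lower.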
